A study of Mus musculus with 9 samples.

Results

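The genes described here are 31 markers of the macrophages of the brain: 6 receptors and surface proteins of microglia, which live in the brain tissue itself (the parenchyma), 4 genes of border macrophages, which live in the meninges and around vessels, and 21 genes that both cell types share. They were chosen as a list of gene symbols for these cell types, with earlier results of these data known, and all 31 have a row among the 18820 genes of the deposited table. The study sequenced cortical RNA of embryos (embryonic day 18.5, strain C57BL/6J) that were wild type (WT), heterozygous (Het) or homozygous mutant (KO) for Cyfip2, in 3 libraries each and with no treatment named. The mutant allele is not described in the labels. Nor do they tie each library to an embryo of its own, so a p-value here reflects only how far these libraries spread, which may be technical. A library is named below by genotype and replicate number, such as Het3. Levels are normalized counts, which are read counts divided by a size factor for each library.

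Microglia and border macrophages both descend from yolk sac progenitors and depend on the transcription factor PU.1 and on signalling through the CSF1 receptor. Microglia settle in the parenchyma, where they clear dying cells and take part in shaping synapses. Border macrophages stay outside it, in the leptomeninges, the dura, the choroid plexus and the perivascular spaces, and are told apart by scavenger receptors that microglia hardly make after colonization. The product of Cyfip2 is part of the WAVE complex, which starts branched actin filaments, and cells of the blood lineage, brain macrophages included, build that complex with subunits of their own.

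Cyfip2 checks the labels: it was at 10169, 10344 and 11174 in WT, 8969, 9779 and 9882 in Het, and 7900.3, 7522 and 8255 in KO, with no overlap between genotypes. Of the genes tested, 3.3% were lower without overlap in KO against WT, 3.31% in Het against WT and 4.68% in KO against Het. The neurons of the cortex were well represented, with Neurod6 between 19275 and 32658. Approximate depth was 29.5 M to 54.4 M reads (M, mega), and 1 read was worth a normalized count of 0.675 to 1.22. The libraries also differed in ways that the labels do not give. Het3 stood apart: the fibroblast collagen gene Col1a1 was at 87.2 there and at 2206 to 5328 elsewhere. WT3, Het1, KO1 and KO2 held olfactory bulb RNA, WT2 and Het2 the most choroid plexus RNA, and Het1, KO1 and KO2 were female by the Y-linked gene Ddx3y. The medians of the border genes are given below with and without these libraries. Red cell RNA was abundant, as the erythroid genes, led by Hba-a2 and Hbb-bs, summed to between 24259 in KO2 and 88421 in KO1. Markers of other white blood cells were low: the neutrophil and monocyte genes, led by Prtn3 and S100a9, summed to between 152 and 247, the lymphocyte genes, led by Ighm and Ms4a1, to between 78.8 and 99.9, and the mast cell genes, led by Cpa3 and Cma1, to between 3.16 and 22.7.

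The promoters of 5 members are shown because the results turn on the contrast between these border genes (Mrc1, Pf4, Cd163) and parenchymal genes (Cx3cr1, P2ry12). Each is the 250 bases before the RefSeq start of the gene on GRCm38.p6, read 5′ to 3′ on the gene's strand. Capitals mark GAGGAA, the core of the motif that PU.1 recognizes, or its reverse complement TTCCTC. Mrc1 is shown at chr2:14229164-14229413 (plus strand), Pf4 at chr5:90772185-90772434 (plus), Cd163 at chr6:124304401-124304650 (plus), Cx3cr1 at chr9:120068297-120068546 (minus) and P2ry12 at chr3:59262986-59263235 (minus).
Mrc1: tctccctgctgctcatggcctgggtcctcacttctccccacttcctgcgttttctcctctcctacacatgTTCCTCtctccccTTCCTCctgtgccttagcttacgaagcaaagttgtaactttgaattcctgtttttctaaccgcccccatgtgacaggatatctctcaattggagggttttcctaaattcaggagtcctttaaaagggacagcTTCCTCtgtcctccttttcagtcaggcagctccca
Pf4: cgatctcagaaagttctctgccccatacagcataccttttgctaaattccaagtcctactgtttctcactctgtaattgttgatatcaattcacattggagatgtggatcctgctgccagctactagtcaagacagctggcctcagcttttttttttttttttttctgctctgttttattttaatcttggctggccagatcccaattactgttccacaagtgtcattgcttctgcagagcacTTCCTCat
Cd163: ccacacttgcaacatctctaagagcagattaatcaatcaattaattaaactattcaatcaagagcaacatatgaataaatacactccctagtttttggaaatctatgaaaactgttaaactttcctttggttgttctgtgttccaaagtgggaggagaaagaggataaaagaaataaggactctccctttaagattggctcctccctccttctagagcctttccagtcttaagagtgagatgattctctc
Cx3cr1: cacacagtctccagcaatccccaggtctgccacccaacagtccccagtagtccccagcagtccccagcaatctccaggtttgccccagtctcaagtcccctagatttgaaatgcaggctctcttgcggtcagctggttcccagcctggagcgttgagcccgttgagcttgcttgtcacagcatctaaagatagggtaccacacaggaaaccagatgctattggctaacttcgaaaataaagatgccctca
P2ry12: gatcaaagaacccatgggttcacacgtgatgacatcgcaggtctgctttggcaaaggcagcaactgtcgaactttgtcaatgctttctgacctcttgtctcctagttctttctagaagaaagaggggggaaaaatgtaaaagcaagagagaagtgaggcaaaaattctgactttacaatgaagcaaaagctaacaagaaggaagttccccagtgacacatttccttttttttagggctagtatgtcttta

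The window of Mrc1 held 3 matches to the core and that of Pf4 held 1, next to the start site. The windows of Cd163, Cx3cr1 and P2ry12 held none. Windows of 250 bases before to 50 after the start were searched on both strands for 21 members, and 15 of them (71.4%) held GAGGAA, against 31.3% of the 27025 genes with a promoter in the RefSeq table. The longer form GAGGAAGT, which contains the core, was found in 4 of the 21 (C1qc, Cd53, Ctss and Pf4; 19%), against 3.69% of all genes. These are matches of letters in a window. The promoters of Abi3, C1qa, Cd14, Csf1r, Gpr34, Lyve1, Nckap1l, Spi1, Tmem119 and Tyrobp are not shown.

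The 4 border macrophage genes had one pattern over the libraries: nearly absent in Het3, highest in KO1, next highest in Het1, and within a narrower band in the other 6. Mrc1, the mannose receptor that takes up glycoproteins (ENSMUSG00000026712, chr2:14229392-14332057, GRCm38), was at 827, 958 and 702 in WT, 1401, 706 and 82.8 in Het, and 1652, 1042.5 and 754 in KO. Its level in Het3 was 9.27% of the median of the other 8 libraries. Cd163, the scavenger receptor for haemoglobin bound to haptoglobin (ENSMUSG00000008845, chr6:124304656-124330527), was at 56.6, 105 and 82.1 in WT, 126, 60.8 and 2.20 in Het, and 132, 104 and 76.8 in KO. The Het3 value is 2.36% of the median of the others and stands for about 2.04 reads (95% exact Poisson interval 0.256 to 7.30, which covers counting error only).

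Lyve1, a receptor for hyaluronan that lymphatic endothelium also makes (ENSMUSG00000030787, chr7:110850607-110863239), was at 186, 276 and 203 in WT, 405, 195 and 6.57 in Het, and 439.6, 232 and 218 in KO. Pf4, the chemokine CXCL4, which megakaryocytes make too (ENSMUSG00000029373, chr5:90772435-90773383), was at 115, 136 and 106 in WT, 180.5, 94.1 and 8.53 in Het, and 212, 154 and 119 in KO. In Het3, Lyve1 was at 2.92% and Pf4 at 6.69% of the median of the other 8, or about 6.10 and 7.91 reads. The intervals of these shares, from the reads of Het3 alone, run from 1.08% to 6.32% for Lyve1, from 2.87% to 13.2% for Pf4, from 0.296% to 8.42% for Cd163 and from 7.32% to 11.6% for Mrc1. For each of the 4 genes, Het3 lay below every other library. In such bulk samples, fewer cells of a type and less RNA per cell cannot be told apart.

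**Figure D1:**
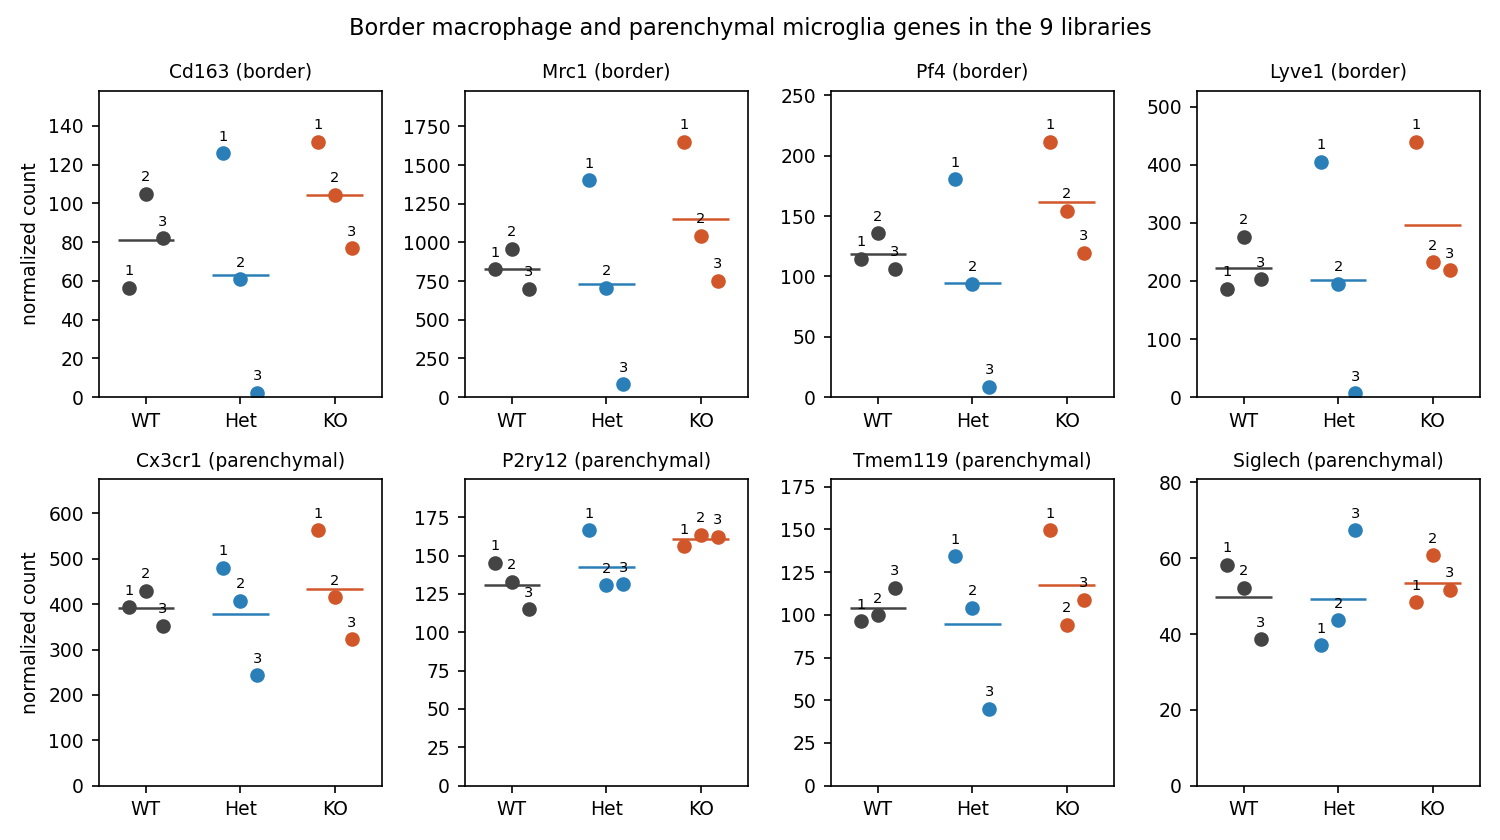
Normalized counts (vertical axes, from 0) of the 4 border macrophage genes (upper panels) and of 4 parenchymal microglia genes (lower panels) in WT, Het and KO; each point is 1 library with its replicate number, and the line is the mean of the 3. Het3 is near the axis in the upper panels only, with Mrc1 at 82.8 against 702 to 1652 elsewhere, and Siglech is highest in Het3.

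The 6 parenchymal genes were less low and less uniform in Het3, at 42.4% to 135% of the median of the other 8 libraries, against 2.36% to 9.27% for the border genes. Cx3cr1, the receptor for the neuronal chemokine fractalkine (ENSMUSG00000052336, chr9:119901616-120069879), was at 394, 429 and 352 in WT, 481, 407 and 244 in Het, and 563, 415 and 322 in KO. Het3 was lowest and KO1 highest, as for the border genes, but Het3 was at 59.2% of the median of the others. Tmem119, a membrane protein used as a microglia marker, was at 96.2, 99.7 and 116 in WT, 134, 104 and 45.1 in Het, and 149.6, 94.1 and 109 in KO. It was the 1 parenchymal gene at under 50% of the lowest of the other libraries in Het3. Fcrls, an Fc receptor-like scavenger protein, was at 414, 341 and 270.0 in WT, 352, 333 and 199.9 in Het, and 494, 298 and 269.9 in KO, and Gpr34, a receptor for lysophosphatidylserine, ran from 31.1 in Het3 to 55.2 in WT2.

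P2ry12 and Siglech did not follow this order. P2ry12, the ADP receptor that guides microglial processes towards injury (ENSMUSG00000036353, chr3:59216272-59262871), was at 145, 133 and 115 in WT, 167, 131 and 131 in Het, and 156, 164 and 162 in KO, so Het3 was the third lowest of the 9, above WT3 and level with Het2. Siglech, a sialic acid-binding lectin (ENSMUSG00000051504, chr7:55768178-55778925), was at 58.3, 52.3 and 38.6 in WT, 37.0, 43.7 and 67.4 in Het, and 48.3, 60.7 and 51.6 in KO, and was the 1 member with its highest value in Het3. Exons of P2ry12 overlap those of Med12l on the opposite strand. The kit was stranded, but the sources used here do not say whether the authors counted by strand. Whether reads of the pair were told apart is therefore not known. Med12l was at 650.4 to 980 in the 9 libraries, with 838 in Het3.

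The ratio of Mrc1 to Cx3cr1 compares 1 gene of the border list with 1 of the parenchymal list within each library. It does not depend on the size factor, and Cx3cr1 was itself lowest in Het3 and highest in KO1. It was 2.10, 2.23 and 1.99 in WT, 2.91, 1.73 and 0.340 in Het, and 2.93, 2.51 and 2.34 in KO. The 3 KO ratios lay above the 3 WT ratios, with means of 2.59 ± 0.306 and 2.11 ± 0.118 (SD, n = 3 each). The two-sided exact permutation p was 0.1, the smallest that 3 against 3 can give, and it was 0.7 for Het against WT and 0.3 for KO against Het. A like ratio of Lyve1 to P2ry12 gave 1.86 ± 0.829 in KO and 1.71 ± 0.398 in WT, with overlapping libraries and an exact permutation p of 0.8. Of the libraries without olfactory bulb RNA, KO3 had the higher Mrc1 to Cx3cr1 ratio, 2.34 against 2.10 in WT1 and 2.23 in WT2. The pairs of genes were chosen after their values were seen. Adjusted over the 9 tests of 3 such ratios, the third being that of Nckap1l to Nckap1 below, each exact permutation p became 0.9.

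Among the 21 shared genes, Het3 was lowest in 19, at 32.3% to 82.8% of the median of the other 8. Over all 31 members Het3 was lowest in 27, against 18.8% of the 15069 genes tested, and it was at under 50% of the lowest of the others in 6 (the 4 border genes, C1qa and Tmem119), against 3.42% of genes. The exceptions to the first count were Irf8, Ptprc, P2ry12 and Siglech. KO1 was the highest library in 16 of the 31, against 15.1% of genes.

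**Figure D2:**
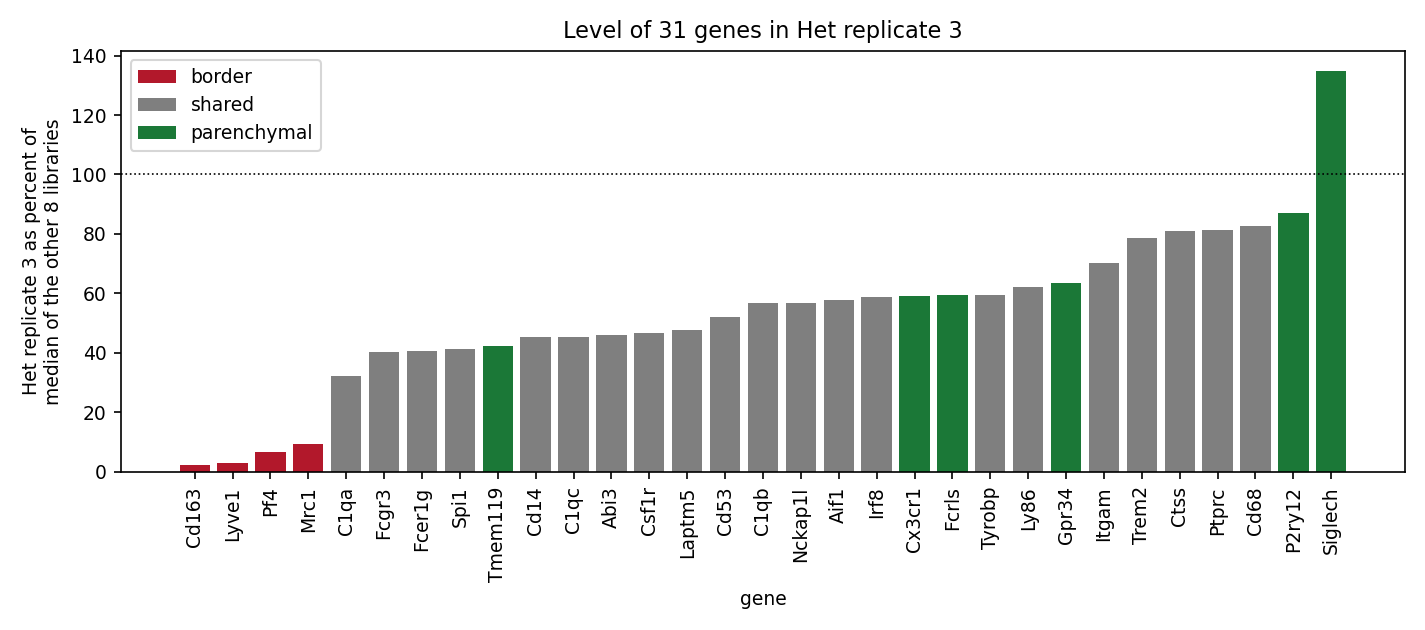
Level of each of the 31 genes (horizontal axis) in Het3 as percent of its median over the other 8 libraries (vertical axis, from 0); colour gives the set and the dotted line is 100%. The 4 border genes stand between 2.36% and 9.27%, the next gene, C1qa, is at 32.3%, and Siglech is at 135%.

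The transcription factors were low in all libraries. Spi1, which encodes PU.1, was at 45.3, 76.4 and 54.5 in WT, 68.2, 41.7 and 22.5 in Het, and 69.3, 46.1 and 54.1 in KO. Irf8, which acts with PU.1 in macrophage development, was at 35.9, 68.5 and 67.9 in WT, 76.0, 72.0 and 41.3 in Het, and 71.8, 94.9 and 59.6 in KO. Their WT libraries varied by 27.2% and 32.5% (coefficient of variation), where the counting of reads alone gives 12.3% and 12.5%. Csf1r, the receptor for CSF1 and IL-34 on which these cells depend for survival, was among the highest members at 798, 790.1 and 652 in WT, 974, 734 and 370.2 in Het, and 1093, 838 and 675 in KO. Its exons overlap those of Hmgxb3 on the opposite strand, which was more abundant at 1851 to 2151.

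Of the receptors that signal through immunoreceptor adaptors, Trem2, the lipid-sensing receptor of microglia, had its own pattern: 72.8, 91.3 and 74.1 in WT, 66.6, 58.7 and 55.7 in Het, and 69.1, 66.2 and 87.4 in KO. All 3 Het libraries lay below all 3 WT libraries, as in 3.31% of genes, and Het3 was close to Het2. Its adaptor Tyrobp (DAP12) was at 123, 120.2 and 115 in WT, 158, 87.0 and 72.5 in Het, and 159, 124 and 109 in KO, with KO1 and Het1 highest and Het3 lowest, as for the border genes. Fcer1g, the shared gamma chain of Fc receptors, was at 98.2, 119 and 79.1 in WT, 125, 89.8 and 45.2 in Het, and 151, 132 and 103 in KO. Fcgr3, an IgG receptor that uses this chain, ran from 64.7 in Het3 to 238 in KO1, and in Het3 the pair stood at 40.6% and 40.2% of the median of the other 8.

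The 3 chains of complement C1q, which tags cells and synapses for removal, were among the 7 most abundant members per length of transcript. On that scale, WT levels in normalized counts per kilobase were 327 for C1qb, 305 for C1qc, 238 for Pf4, 216 for Cd68, 213 for Laptm5, 212 for Tyrobp and 202 for C1qa, and ran down to 13.1 for Ptprc, 7.48 for Abi3 and 4.65 for Cd14. C1qa was at 191, 228 and 211 in WT, 315, 182 and 67.3 in Het, and 286, 206 and 198 in KO. C1qb and C1qc were at 56.7% and 45.4% of the median of the others in Het3, against 32.3% for C1qa.

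Nckap1l (Hem1) and Abi3 are the blood-lineage subunits of the WAVE complex, the complex that Cyfip2 belongs to. Nckap1l was at 133, 160.0 and 131 in WT, 175, 147 and 87.0 in Het, and 186, 167 and 126 in KO. Nckap1, its counterpart in neurons and most other cells, was at 10974 to 13550, and the ratio of Nckap1l to Nckap1 ran from 0.00658 in Het3 to 0.0167 in KO1. Abi3 was at 25.3, 35.8 and 28.8 in WT, 53.2, 33.1 and 15.9 in Het, and 49.97, 29.1 and 40.3 in KO. Exons of Abi3 overlap Gngt2, Phospho1 and Zfp652 on the opposite strand, so its reads may not be its own.

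Of the leukocyte surface genes, Ptprc (the phosphatase CD45) was at 77.0, 54.8 and 52.6 in WT, 66.8, 40.8 and 49.4 in Het, and 70.5, 81.3 and 49.6 in KO, with the lowest value in Het2. Itgam (CD11b, part of complement receptor 3) was at 68.0, 64.7 and 65.7 in WT, 73.6, 82.0 and 51.4 in Het, and 72.7, 97.8 and 81.0 in KO. Its KO libraries all lay above its WT libraries, as in 3.17% of genes. The WT libraries varied by 2.56% where reads alone give 11.95%. Its exons overlap those of Gm49368 on the same strand. Cd53, a tetraspanin, ran from 36.5 in Het3 to 99.95 in WT1, and Aif1 (IBA1, an actin-bundling protein) from 19.7 in Het3 to 46.1 in WT1.

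Of the lysosomal genes, Cd68 and Ctss were among the members least low in Het3. Cd68, a lysosomal membrane glycoprotein, was at 232, 206 and 289 in WT, 286.5, 196 and 186 in Het, and 221, 214 and 228 in KO, and Ctss, the protease cathepsin S, ran from 175 in Het3 to 264 in Het1. In Het3 they stood at 82.8% and 80.9% of the median of the others. Laptm5, a lysosomal membrane protein of blood cells, was at 47.6% on the same measure and ran from 251 in Het3 to 872 in KO1. Ly86 (MD-1), a partner of a toll-like receptor homologue, ran from 44.9 in Het3 to 85.3 in KO1. Cd14, the co-receptor for lipopolysaccharide, was at 4.29 to 18.9, with a mean under 10, so it was left out of the test across genes, which takes the other 30 members.

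**Figure D3:**
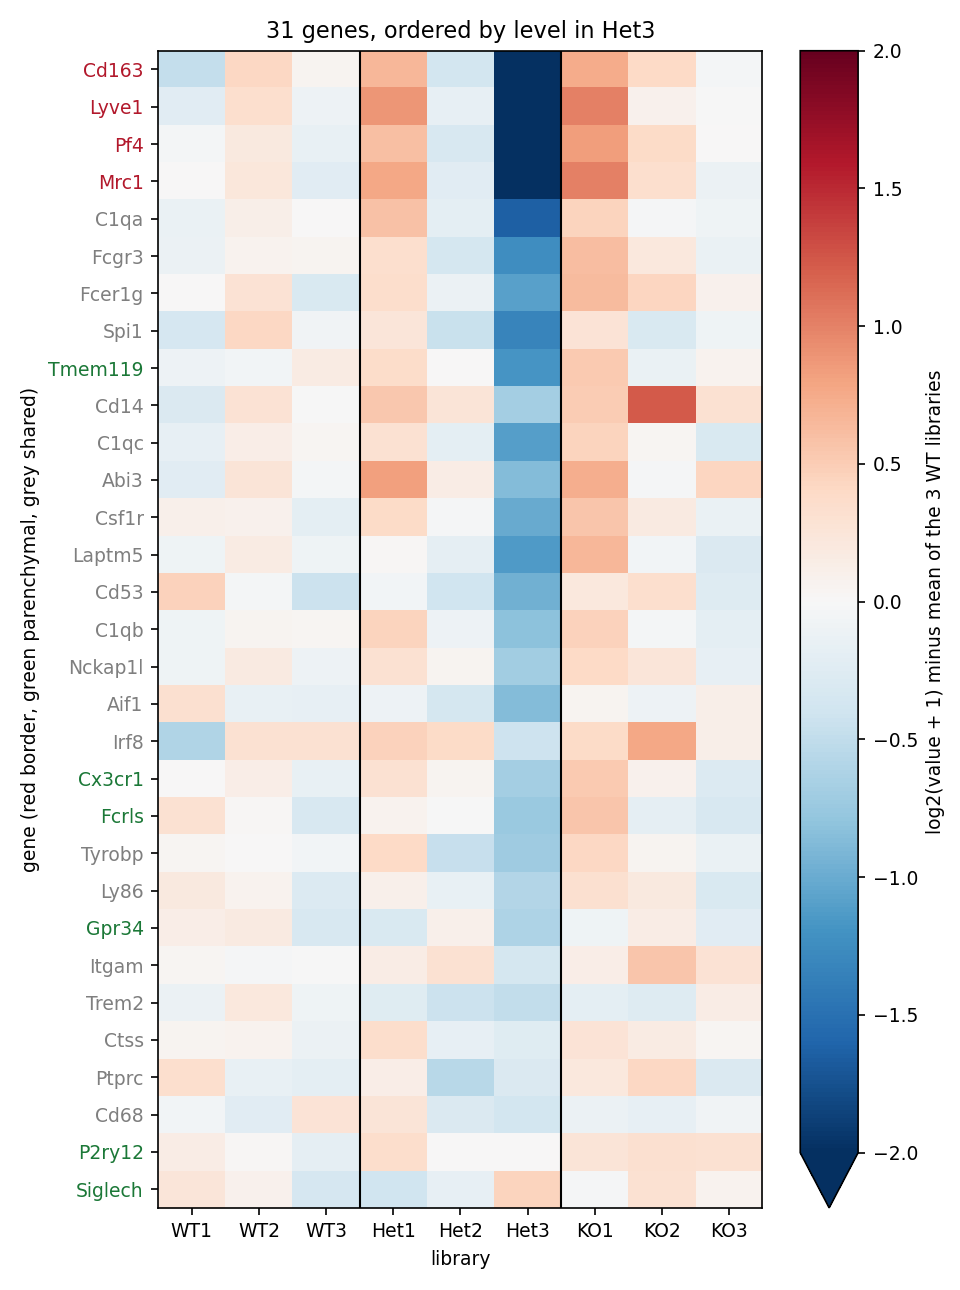
Each of the 31 genes (rows) in each of the 9 libraries (columns) as log2(value + 1) minus the mean of the 3 WT libraries, ordered by level in Het3; the colour scale ends at -2 and 2. The Het3 column is past the lower end of the scale for the 4 border genes and blue for most others, and the KO1 column is red for most genes.

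KO was compared with WT to ask what accompanies mutation of both alleles. No member passed the threshold, and no gene did: limma on log2(value + 1), adjusted by Benjamini-Hochberg over the 15069 genes, called 0 of 30 members and 0% of genes. Cyfip2 itself was among the genes not called, although its KO libraries all lay below its WT libraries. At an unadjusted p under 0.05 there were 0 members, against 1.18% of genes. The log2 fold change was above 0 in 26 members and below 0 in Gpr34, Spi1, Trem2 and Cd68, with a median of 0.12 beside -0.0042 over all genes tested. The median was 0.12 for the parenchymal genes, 0.11 for the shared genes and 0.39 for the border genes. Mrc1 was at 0.41 ± 0.87 (log2, SE) with a 95% interval of -1.56 to 2.38, and Cx3cr1 at 0.11 ± 0.27 (-0.51 to 0.73). Both intervals include sizeable differences in either direction. The fit takes 1 spread per gene from all 9 libraries. The SE of Mrc1 thus includes the low value of Het3, and was 0.87 in each comparison.

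The smallest p among the members was that of P2ry12, at 0.30 ± 0.16 on the log2 scale (SE; 95% interval -0.06 to 0.66), with an unadjusted limma p of 0.0951 and an adjusted p of 1.00. Its KO libraries did not overlap the WT libraries, and the same held for Itgam (0.33 ± 0.22) and for Cd14, which was not tested. These 3 of 31 compare with 3.17% of genes that were higher in KO without overlap, and 0 members were lower without overlap, against 3.3% of genes. The sign of many members depended on which libraries were fitted. Without KO1 the medians were -0.03 for the parenchymal genes and 0.15 for the border genes, and 9 of 30 members had the opposite sign. With sex in the fit 21 members had the opposite sign and the border median was -0.80. All 3 WT libraries were male, so the sex term rests on the Het and KO libraries, Het3 among them. Without the 4 libraries with olfactory bulb RNA 22 members had the opposite sign and the border median was -0.06. That last fit sets KO3 alone against WT1 and WT2, so its values are those of 1 KO library, assumed to vary like the rest. Without the 2 libraries highest in choroid plexus RNA the border median was 0.52. P2ry12 was at 0.32 without KO1, 0.19 with sex in the fit and 0.22 in KO3 alone.

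Het was compared with WT to ask what accompanies 1 mutant allele. Again 0 of 30 members and 0% of genes passed (limma, Benjamini-Hochberg), and at an unadjusted p under 0.05 there were 0 members, against 1.61% of genes. The log2 fold change was below 0 in 26 members and above 0 in P2ry12, Irf8, Abi3 and Itgam, with a median of -0.26 beside -0.0099 over all genes. The median was -0.17 for the parenchymal genes, -0.25 for the shared genes and -1.25 for the border genes. Cd163 had the lowest value, -1.45 ± 1.14 (SE), with a 95% interval from -4.03 to 1.14.

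Those border values rested on Het3. Without it, the median of Het against WT was 0.21 for the border genes, 0.10 for the parenchymal genes and 0.06 for the shared genes. All 4 border genes and 14 of the 30 members then had the opposite sign, and Mrc1 was at 0.27 instead of -0.92. With Het3 in the fit, the border median was -1.84 with sex as a covariate, -2.27 without the libraries with olfactory bulb RNA and -1.60 without those highest in choroid plexus RNA. Trem2 was the member with the smallest p, at -0.39 ± 0.20 (SE), with an unadjusted limma p of 0.0806 and an adjusted p of 1.00, and the 1 member of 31 whose Het libraries all lay below its WT libraries, against 3.31% of genes. No member lay above without overlap, against 3.36% of genes. Trem2 was at -0.33 without Het3, and from -0.53 to -0.27 over all alternatives tried.

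KO against Het gave 0 of 30 members and 0% of genes past the threshold, and 0 members at an unadjusted p under 0.05, against 3.59% of genes (limma). All 30 log2 fold changes were above 0, with a median of 0.36 beside 0.0016 over all genes and of 1.64 for the border genes, and the comparison shares its Het libraries with the one before. The smallest p was that of Fcer1g, 0.0957 unadjusted and 0.942 adjusted (limma), at 0.67 ± 0.36 (SE). No member separated the genotypes, higher or lower, where 3.15% and 4.68% of genes did. Without Het3 the border median was 0.18, the parenchymal median 0.02, and 8 members had the opposite sign. With Het3, the border median was 1.04 with sex as a covariate, 2.23 without the libraries with olfactory bulb RNA, where KO3 stands alone, and 2.14 without those highest in choroid plexus RNA.

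**Figure D4:**
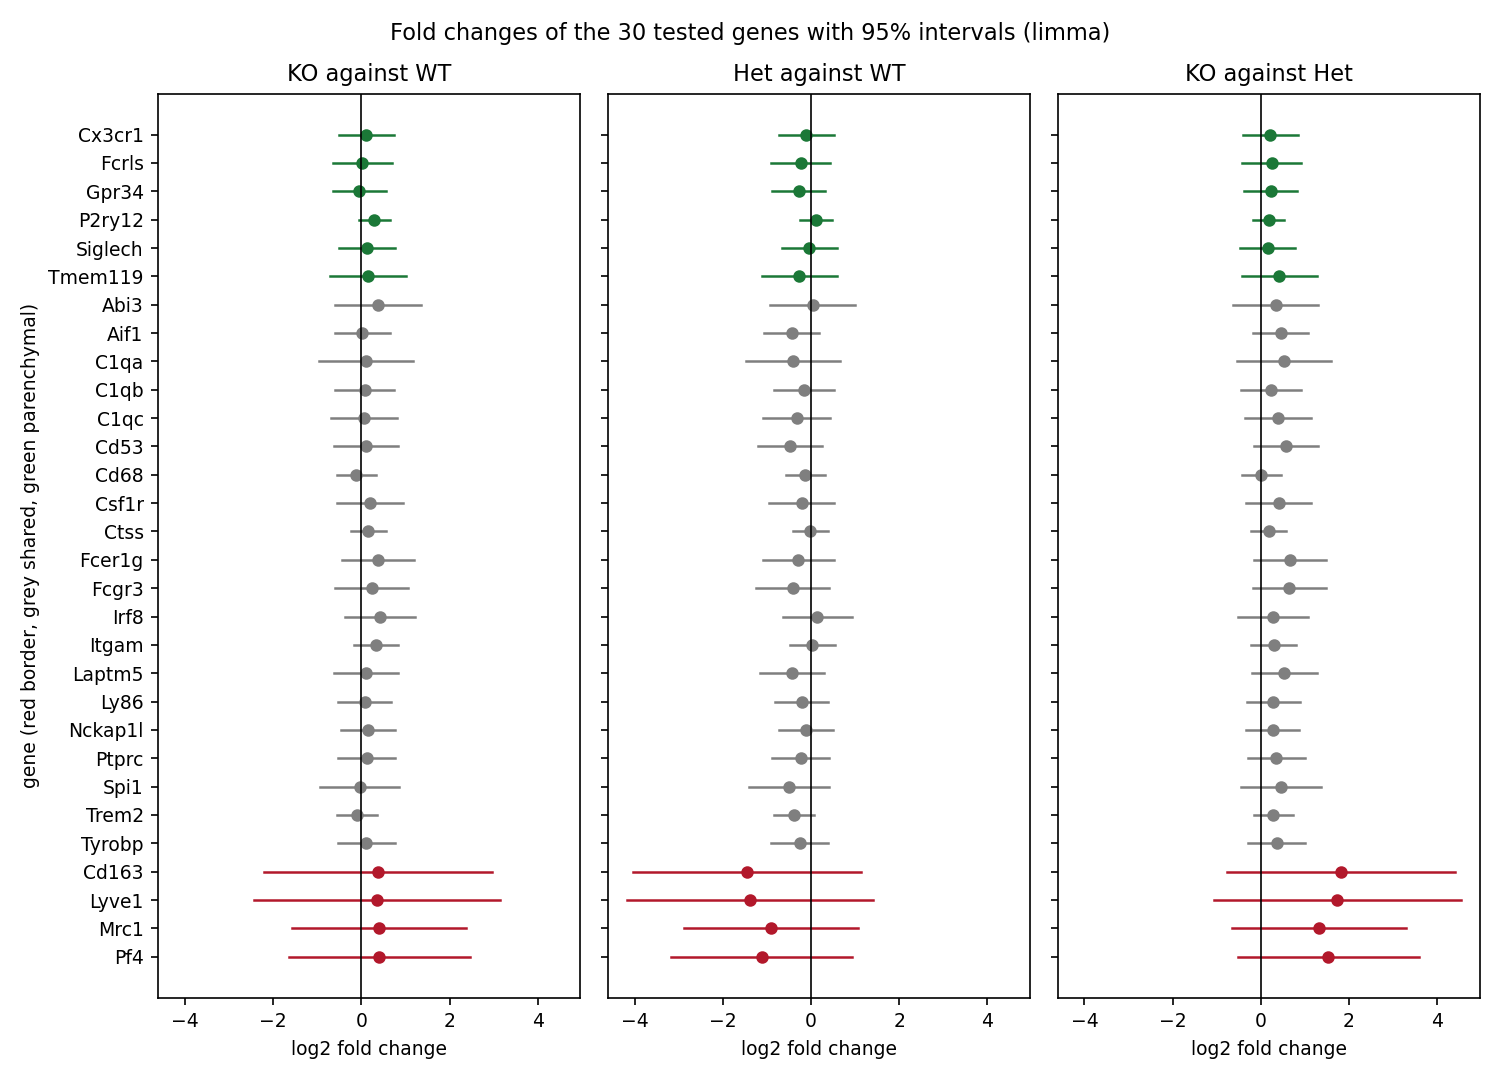
Log2 fold changes (horizontal axes) of the 30 tested members in the 3 comparisons, with 95% intervals from limma; colour gives the set. Every interval includes 0, and those of the 4 border genes are the widest, for example from -4.03 to 1.14 for Cd163 in Het against WT.

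Meningeal fibroblast genes shared the extremes of the border genes. KO1, Het1 and KO2 were the 3 highest libraries of both sets, in that order, and Het3 was the lowest. Between these, WT1, WT2, WT3, Het2 and KO3 came in a different order in each set. The shared order of the extremes is not particular to this pair. The shared, endothelial and pericyte sets had the same 3 highest libraries in the same order, with Het3 lowest. KO1, Het1 and KO2 were also the female libraries, and all held olfactory bulb RNA. The 14 tested meningeal genes, led by Col3a1 and Col1a2, were all lowest in Het3. The median of log2(value + 1) relative to the WT mean was -4.72 in Het3 for these genes and -4.14 for the border genes, against -0.65 for the parenchymal, -0.84 for the shared and -0.79 for the endothelial genes, the last led by Slc2a1 and Kdr. In KO1 it was 0.88 for the meningeal and 0.92 for the border genes, in Het1 0.72 for both, and in KO2 0.49 and 0.36. The summed level of the meningeal list was 709 in Het3 and ran from 14209 to 17984 in WT, to 27885 in Het1 and to 33819 in KO1. The pericyte genes, led by Rgs5 and Notch3, were at -0.33 in Het3, and cortical neuron genes at 0.12. The choroid plexus genes were also far down in Het3, at -2.92, and ran widely elsewhere, from -0.92 in KO3 to 2.36 in Het2. The part of these tissues in the values of the border genes was not tested.

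**Figure D5:**
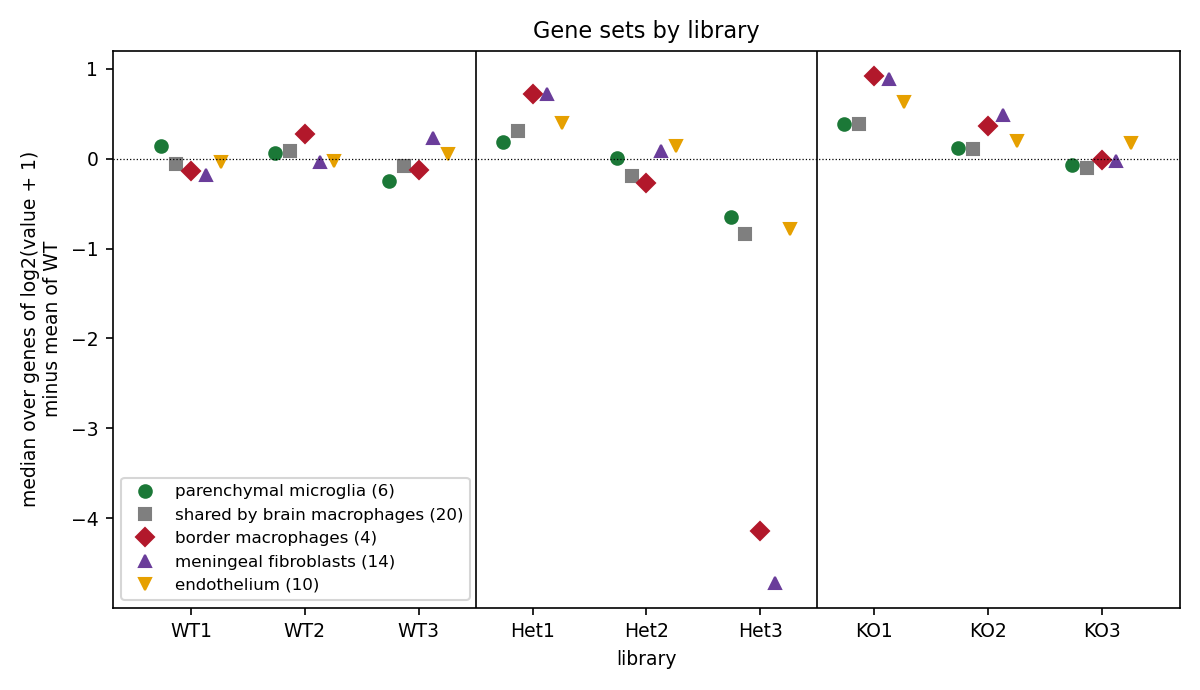
Median over the genes of each set of log2(value + 1) minus the WT mean (vertical axis) in each library (horizontal axis), for the 3 sets of members and for meningeal fibroblast and endothelial genes. In Het3 the border and meningeal sets lie at -4.14 and -4.72 and the other 3 sets between -0.84 and -0.65.

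Over the 8 libraries other than Het3, the 4 border genes correlated with Col1a1 at Pearson's r of 0.69 (Cd163) to 0.80 (Mrc1), with exact permutation p of 0.0191 to 0.0634, or 0.106 to 0.164 when adjusted over the 31 members. Spearman's rho ran from 0.57 (Mrc1) to 0.69 (Cd163), with exact permutation p of 0.0694 to 0.151 and an adjusted p of 0.312 for each. Without KO1 and Het1, the 2 libraries farthest from the median of Col1a1, r ran from -0.09 to 0.23, so the relation was not seen without them. They hold the highest Col1a1, and leaving them out narrows its range, which by itself can lower r. Values of r as high as those over the 8 libraries were not confined to the border genes. The highest r of the 31 members were those of the shared genes C1qb and Nckap1l, 0.81 each, which were 0.09 and 0.49 without KO1 and Het1. Cx3cr1 had an r of 0.79 (exact permutation p = 0.0199, adjusted 0.106), which was 0.24 without those 2 libraries, and no member had an adjusted p under 0.05.

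Lists of other genes used for these cells, some of which other cells of the cortex may make too, also had 0 calls in each comparison (limma). Of 19 other border macrophage genes, 18 had a row and 14 were tested, and 13 of the 14 were lowest in Het3, with a median log2 fold change of 0.36 in KO against WT and -0.81 in Het against WT. Ms4a7 was at 40.4, 32.4 and 37.4 in WT, 42.4, 14.6 and 0.488 in Het, and 56.9, 24.3 and 57.5 in KO. The relative gene Ms4a4a was listed at 0 in Het3, and Folr2, a folate receptor of border macrophages, was at 1.06 there against 14.6 to 31.9 elsewhere. Vsig4 was not analysed here.

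Of 25 other microglia genes, 15 were lowest in Het3, and the medians were 0.11 and -0.11 in the same comparisons. The 3 with the smallest p were Tlr4, the receptor for lipopolysaccharide (-0.65 ± 0.37 in Het against WT), the fructose transporter Slc2a5 (-0.56 ± 0.33) and Syk, the kinase downstream of Tyrobp (0.36 ± 0.25 in KO against WT). Slc2a5 was at 44.9, 51.0 and 38.5 in WT and at 30.3, 29.8 and 29.5 in Het. Its 3 Het libraries lay below the WT libraries, as in 3.31% of genes, and Het3 was level with Het1 and Het2. Its unadjusted limma p in Het against WT was 0.128. The 25 genes summed to between 36041 and 37596 in WT, against 930 to 1161 for the 6 parenchymal members. How much of that RNA came from other cells was not tested.

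Of the genes through which other cells signal to microglia, 12 of 13 were tested, 7 were lowest in Het3, and the medians were 0.17 and -0.17. Il34, the second ligand of Csf1r, was at 112, 103 and 157 in WT, 165, 84.4 and 19.3 in Het, and 187, 122 and 143 in KO. Cx3cl1, the fractalkine of neurons that binds Cx3cr1, was at 549 to 835, with 646 in Het3, and Apoe, the lipid carrier, at 1489 in Het3 and 2824 to 4115 elsewhere.

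Among 10 tested genes of microglia of axon tracts and proliferative regions, the median was -0.21 in Het against WT, with Ctsl (-0.18 ± 0.09), Spp1 (-0.72 ± 0.43) and Lgals3 (-0.55 ± 0.36) having the smallest p. Among 10 lineage regulators the median was -0.05, with Maf at -0.16 ± 0.08, Cebpa at -0.65 ± 0.38 and, in KO against WT, Cebpb at 0.47 ± 0.28. Among 12 phagocytosis receptors it was -0.20. Havcr2 (TIM-3) was at -0.72 ± 0.34 and Scarb1 at 0.20 ± 0.12 in KO against WT, and the scavenger receptor Msr1 was at 3.25 in Het3 against 29.6 to 59.5 elsewhere. Errors in this paragraph are SE, and no gene of these lists passed the threshold in any comparison.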

How the data were processed

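RNA of 9 cortex libraries was prepared with a stranded mRNA kit, per the labels' protocols. In the deposited table, values are a signal, which the authors made from each library's gene counts and its size factor by division, per the file headers. Tools named without a role in the submitters' processing notes are DESeq2 1.19.11, Salmon 0.11.2 and R 3.6.0, with the build GRCm38. Low values cluster near multiples of 1 read, but only 60.9% to 78.2% lay within 0.1 of a whole step, so reads were not recovered and no count test was run.

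Genes averaging at least 10 (15069 in all) were tested on log2(value + 1), a scale that understates the change of genes with low values. In R 4.3.3, limma 3.58.1 (lmFit, eBayes with trend) fitted 1 mean per genotype over all 9 libraries. p-values are two-sided, the Benjamini-Hochberg adjustment covers every gene tested, and the threshold is 0.05. Symbols and coordinates come from GENCODE M21, which matched 18783 of 18820 gene IDs, and promoters from RefSeq. Levels per kilobase use the median length of a gene's protein-coding transcripts. Depth was estimated from the totals and the size of 1 read.

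The members and all lists were chosen with earlier results of these data known. The rule for named genes takes every member, the 3 genes of each related list with the smallest unadjusted p in Het or KO against WT, and the 2 most abundant of lists of other cells, for which choroid plexus, erythroid, olfactory and Y-linked lists served as checks only. The alternatives were a replicate block, other pseudocounts, filters and scalings, the compared genotypes alone, quality weights, sex as a covariate and leaving out each library, and, chosen after seeing the data, leaving out the libraries with olfactory bulb or with choroid plexus RNA.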

Additional observations from a re-analysis of the deposited data

How the results depend on the processing

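No member passed the threshold under any of the 21 alternatives, 2 of them chosen after seeing the data: 0 of 1881 values, with a smallest adjusted p of 0.0727 (Trem2, Het against WT, limma with sample quality weights, which gave Het2 a weight of 7.12 and Het3 one of 0.315). The number of genes called over the whole table was 0 as reported and 1 with the compared genotypes alone (Het against WT and KO against Het) and with sample quality weights (Het against WT). Leaving out 1 library in turn it ran from 0 to 1 in each comparison: it was 1 without KO3 in KO against WT, without WT1, Het1 or KO3 in Het against WT, and without WT1 or Het1 in KO against Het, and it was no member. Medians in KO against WT turned to -0.22 for the parenchymal genes without the libraries with olfactory bulb RNA, and to -0.27 for the shared genes and -0.27 for the parenchymal and shared genes together with sex in the fit; the cause was not tested. Leaving out 1 library in turn, the border median ran from 0.15 to 0.59 in KO against WT, -2.24 to 0.21 in Het against WT (0.21 without Het3) and 0.18 to 2.63 in KO against Het (0.18 without Het3). Quantile scaling gave 20 members above and 10 below 0 in KO against WT, instead of 26 and 4. With the replicate block, 0 genes were called in each comparison. Each replicate number occurs once per genotype, so the block leaves every fold change as it was and can alter only the p-values. Same-numbered libraries deviated together at r of -0.07 to 0.47, and libraries with different numbers at -0.46 to 0.17. The 2 highest values were same-numbered, Het3 with KO3 (0.47) and Het1 with KO1 (0.45). Whether the numbers pair the libraries is therefore not settled. Each genotype had 3 libraries, and Het3 was nearly without border RNA. The intervals of the border genes span several log2 units in all 3 comparisons. The fit takes 1 spread per gene from all 9 libraries, so Het3 widens the intervals of KO against WT too. Cd163, Lyve1 and Pf4 in Het3 rest on under 10 reads each.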
